A study of Solanum lycopersicum with 12 samples.

Results

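MPK3, MAPKKKalpha and Wfi1 are tomato genes of 2 linked signalling systems, the mitogen-activated protein kinase (MAPK) cascade and the oxidative burst at the plasma membrane. All probe sets whose annotated symbol is MPK3, MAPKKKalpha or Wfi1 were taken, which gave 3 genes and 5 of the 10038 probe sets tested: 3 for MPK3 and 1 each for MAPKKKalpha and Wfi1. A symbol is annotated for 909 probe sets of the array. The probe sets were taken by symbol alone, but the 3 genes were chosen with earlier results of these data known. Counts of members beside the share of all probe sets are therefore descriptions.

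A MAPK cascade is a relay of 3 kinases: a MAPK kinase kinase phosphorylates a MAPK kinase, which phosphorylates a MAPK, which then acts on enzymes and transcription factors. MAPKKKalpha stands at the head of such a relay and is known in tomato and Nicotiana benthamiana as a positive regulator of the cell death that follows recognition of a pathogen by the resistance protein Pto. MPK3 stands at its end and is known in tomato as a kinase activated by wounding, by the peptide hormone systemin and by pathogen signals. Wfi1 was named as a whitefly-induced gene and encodes a respiratory burst oxidase homolog, an NADPH oxidase of the plasma membrane that makes superoxide outside the cell. A transcript level measured on an array says nothing of the activity of these proteins, which are controlled by phosphorylation and, for the oxidase, by calcium as well.

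The 12 arrays came from whole hydroponic tomato plants that had 6 true leaves. The plants were 4 weeks old at transfer, had 3 days to acclimate and then stood for 5 h in fresh nutrient solution with 0 or 200 mM NaCl. One genotype was the cultivar Moneymaker. The other was PI365967, an accession of wild tomato known for tolerating salt, for which the labels name the same organism, Solanum lycopersicum, as for the cultivar. Both were measured without and with salt, which made 4 groups of 3 arrays. An array carried RNA pooled from 3 plants, so that 9 plants stood behind a group. In pooled whole plants, fewer cells of a type and less RNA per cell cannot be told apart. How well the probes of this array match the transcripts of PI365967 was not tested, so a difference between genotypes is one of hybridization signal.

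The deposited values are linear intensities, with array medians between 336 and 642. They became log2(intensity + 16) after quantile normalization, and log2 levels below are on that scale, where an intensity of 0 before normalization equals 4. Differences were tested with limma over all 10038 probe sets and all 12 arrays. Called means a p under 0.05 after Benjamini-Hochberg adjustment, and values after ± are standard errors of a difference unless SD is stated, with n = 3 arrays a group. Salt changed much of the array. In Moneymaker 57.4% of all probe sets were called, 26.0% higher and 31.3% lower under salt, and in PI365967 47.6% were called, 23.3% higher and 24.3% lower. For the difference of the salt effects between genotypes 13.4% were called, and for the genotype difference 37.0% without salt and 49.5% under salt. Every salt array lay above every control array for 29.1% of all probe sets in Moneymaker and for 27.4% in PI365967. Every PI365967 array lay above every Moneymaker array for 26.3% without salt, and below for 27.0% under salt. Wherever the 3 arrays of one group all lay on one side of those of the other, an exact two-sided permutation test gave p = 0.1, the smallest that 3 against 3 arrays allow, so limma carries the tests.

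Markers of both plant parts were measured on every array. The 7 leaf probe sets (photosynthesis genes) summed to intensities of 46948 to 77895 in Moneymaker without salt and 30245 to 41963 with salt, and to 65219 to 84214 and 48493 to 61435 in PI365967. The 7 root probe sets (transporter and root peroxidase genes) summed to 18343 to 27895 and 12836 to 17549 in Moneymaker, and to 14857 to 20854 and 12427 to 17363 in PI365967. No marker was at 0, and the lowest single intensity was 7.8. All 7 leaf probe sets fell under salt in Moneymaker (median log2 difference −0.64) and 4 of 7 in PI365967 (−0.25). Of the root probe sets, 5 fell and 1 rose in Moneymaker (median −1.51), and 4 fell in PI365967 (median −0.47). These markers therefore moved with the salt contrasts below, more in Moneymaker than in PI365967 by their medians. Control probe sets for ribosomal RNA, kept out of the tests, also moved under salt in log2. The 25S one moved by 1.91 in Moneymaker and 0.82 in PI365967, and the 17S one by 0.55 and −0.14. Those for gapdh ran from −0.28 to −0.11 over both genotypes. The part of all these shifts in the results for the 3 genes was not tested.

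Salt raised all 5 member probe sets in Moneymaker and 4 of the 5 in PI365967, against 26.0% and 23.3% of all probe sets called higher in those comparisons and 17.5% called higher in both. MPK3 rose 3.48-fold in Moneymaker and 1.38-fold in PI365967 on its specific probe set, and the difference between the genotypes was called for each of its 3 probe sets. Wfi1 rose 2.40-fold in Moneymaker and 1.70-fold in PI365967. MAPKKKalpha rose 1.56-fold and 1.22-fold, and in PI365967 it started from a higher level. For Wfi1 and MAPKKKalpha the difference between the genotypes' salt effects did not pass the test.

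**Figure D1:**
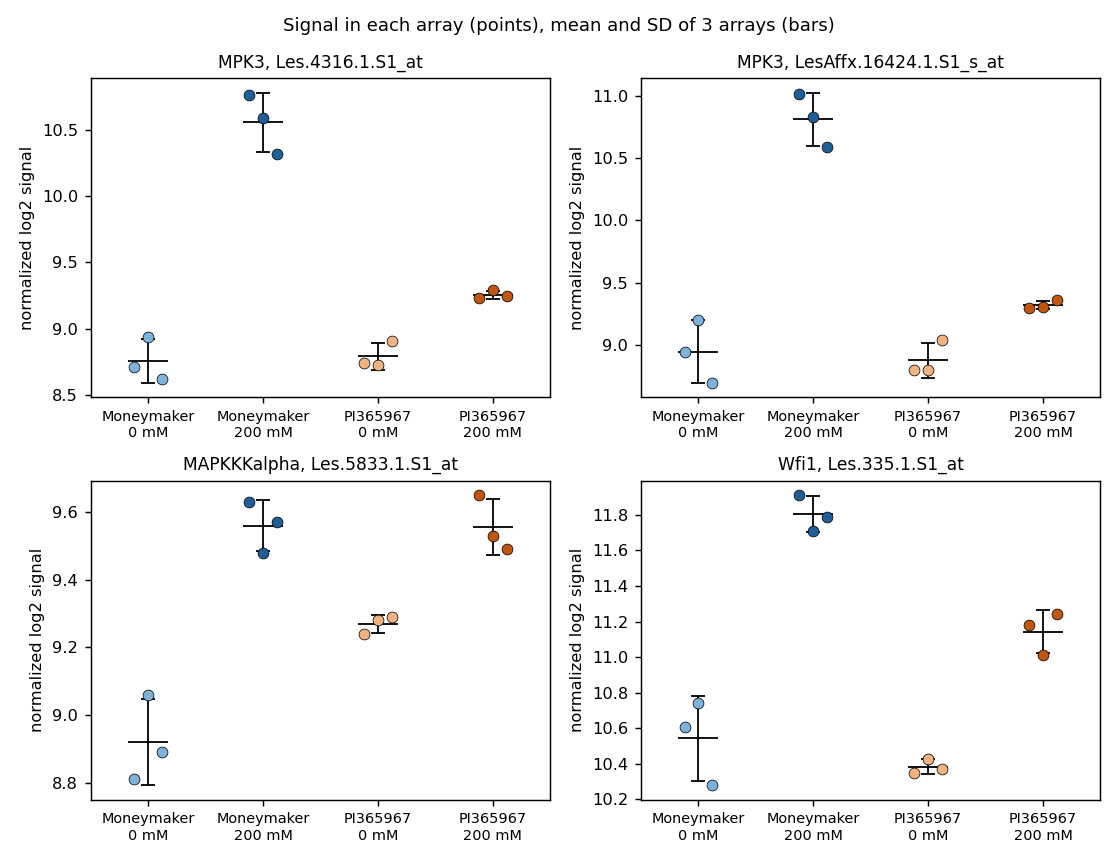
Normalized log2 signal of the 4 sense member probe sets in each of the 12 arrays, by genotype and salt, with points for arrays and bars for the group mean and SD; the MPK3 identifier ending in s_at is the probe set open to related transcripts. In MPK3 the Moneymaker salt arrays stand apart from the other 3 groups, in Wfi1 both salt groups lie above both control groups, and in MAPKKKalpha the Moneymaker controls are the lowest group.

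MAPKKKalpha, the kinase at the head of the relay, was read by 1 probe set. Its normalized log2 level in the Moneymaker controls was 8.81, 9.06 and 8.89 in replicates 1 to 3, from intensities of 479.2 to 639.7. Under salt the Moneymaker arrays read 9.63, 9.48 and 9.57. Every salt array lay above every control array, the nearest pair being 0.42 apart. The rise was 0.64 ± 0.08 in log2 (1.56-fold, 95% confidence interval 0.46 to 0.82, adjusted p = 4.17e-05), and 13.9% of all probe sets rose by as much or more. The value without normalization between arrays was 0.42 and was not called (adjusted p = 0.201). There the median of all probe sets itself stood at −0.25.

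In PI365967 the MAPKKKalpha level was 9.24, 9.28 and 9.29 without salt and 9.65, 9.53 and 9.49 with salt. The groups again did not overlap, with a gap of 0.20 between the nearest arrays. The rise was 0.29 ± 0.08 (1.22-fold, adjusted p = 0.013), which is 44.8% of the rise in Moneymaker on the log2 scale. It missed the threshold without the first PI365967 salt array (0.24, adjusted p = 0.0547) and without normalization (0.39, adjusted p = 0.346).

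Before salt, PI365967 already stood above Moneymaker in MAPKKKalpha by 0.35 ± 0.08 (1.27-fold, adjusted p = 0.0062), and all 3 PI365967 controls lay above the 3 Moneymaker controls. It was the 1 member probe set of 5 called for the genotype difference without salt, where 19.2% of all probe sets were called higher and 17.8% lower. Under salt the genotypes met: both had a mean of 9.56, and the difference was −0.01 with a 95% confidence interval of −0.19 to 0.17 (adjusted p = 0.958). The salt effect of PI365967 minus that of Moneymaker was −0.35 ± 0.12 (95% confidence interval −0.61 to −0.10, adjusted p = 0.0667). Leaving out the second Moneymaker control array, the highest of its group, brought this difference past the threshold (−0.43, adjusted p = 0.0266). The genotype difference without salt was 0.04 (adjusted p = 0.941) when the arrays were not normalized to each other, where the median of all probe sets was −0.22. The order of the group levels was Moneymaker without salt, PI365967 without salt, then both salt groups, which did not differ beyond their spread.

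Between the head and the end of the relay stand the MAPK kinases. The cascade list held 6 probe sets outside the members: 4 for MAPK kinases (MKK2, MKK3, MKK4 and MEK1) and 2 for MAPKs (MPK2 and MAPK10). In Moneymaker 1 of the 6 rose and none fell, beside 26.0% and 31.3% of all probe sets. The median was 0.03 against −0.05 over all probe sets. In PI365967 none rose and 3 fell, beside 23.3% and 24.3% of all, with a median of −0.26 against −0.00. The salt effects of the list ran from −0.08 to 0.35 in Moneymaker and from −0.39 to 0.03 in PI365967.

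MKK2, a MAPK kinase known to activate MPK3 in tomato, was the probe set that rose in Moneymaker. Its control arrays read 10.16, 10.36 and 10.35 and its salt arrays 10.78, 10.59 and 10.56, with no overlap. The rise was 0.35 ± 0.09 (1.28-fold, adjusted p = 0.00514). In PI365967 the difference was 0.03 ± 0.09 (adjusted p = 0.823) and the groups overlapped. The genotype difference in this effect, −0.32 ± 0.13, did not pass (adjusted p = 0.114).

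MKK4, which can also phosphorylate MPK3, differed between the genotypes in both conditions. Its normalized log2 level ran from 11.14 to 11.34 in the Moneymaker controls and from 11.18 to 11.33 under salt, and from 10.18 to 10.25 and 9.68 to 10.06 in PI365967. Every PI365967 array lay below every Moneymaker array. PI365967 was lower by 1.03 ± 0.10 in log2 without salt (2.04-fold, adjusted p = 1.38e-05) and by 1.38 ± 0.10 under salt (2.60-fold, adjusted p = 1.1e-06), and both calls held without normalization, at −1.31 and −1.35. Of the 6 cascade probe sets, MKK4 had the largest genotype difference in both conditions. Salt lowered MKK4 in PI365967 by 0.31 ± 0.10 (adjusted p = 0.0217). That call was lost without the second PI365967 control (−0.29, adjusted p = 0.0642) or the third PI365967 salt array (−0.21, adjusted p = 0.0742), with median centring (−0.27, adjusted p = 0.0506) and with the PI365967 arrays alone in the fit (−0.31, adjusted p = 0.0532).

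The other falls in PI365967 were those of MEK1 (−0.32 ± 0.08, adjusted p = 0.00827) and MKK3 (−0.39 ± 0.13, adjusted p = 0.0334), both MAPK kinases. The MKK3 call was lost without the second PI365967 salt array (−0.39, adjusted p = 0.0694), the third control (−0.28, adjusted p = 0.135) or the third salt array (−0.28, adjusted p = 0.123). It was also lost with the replicate number as a block (adjusted p = 0.052), with the PI365967 arrays alone in the fit (adjusted p = 0.0608) and on the authors' other log2 values (−0.23, adjusted p = 0.0886). MPK2, a MAPK that acts beside MPK1 in systemin signalling, did not pass in either genotype (−0.06 ± 0.07 and −0.15 ± 0.07), and neither did MAPK10 (0.01 ± 0.08 and −0.21 ± 0.08). Without normalization none of the 4 salt calls of the cascade list held: MKK2 read 0.17 in Moneymaker, and MEK1 read −0.25, MKK3 −0.40 and MKK4 −0.19 in PI365967. For the difference of the salt effects none of the 6 was called, and all 6 estimates were below 0, from −0.49 to −0.08. For the genotype difference, 2 of the 6 were higher and 1 was lower in PI365967 without salt (19.2% and 17.8% of all probe sets). Under salt 4 were lower (22.7% of all). Among these genotype calls, those of MKK4 held without normalization and those of the other genes did not. The higher level of MKK3 in PI365967 without salt (0.39, adjusted p = 0.0411) was near the threshold. It was lost in 6 of the 12 fits that left out an array (0.28 to 0.45 over the 12), with an offset of 1 (0.44, adjusted p = 0.0516) and with the replicate number as a block over all arrays (adjusted p = 0.063), and it passed with that block and only the controls in the fit (adjusted p = 0.0491). Under salt, the MEK1 call (−0.29) was lost without the first Moneymaker salt array (−0.22, adjusted p = 0.0581). The MKK2 call (−0.30) was lost without that array (−0.24, adjusted p = 0.0627) or the third PI365967 salt array (−0.26, adjusted p = 0.0503).

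**Figure D2:**
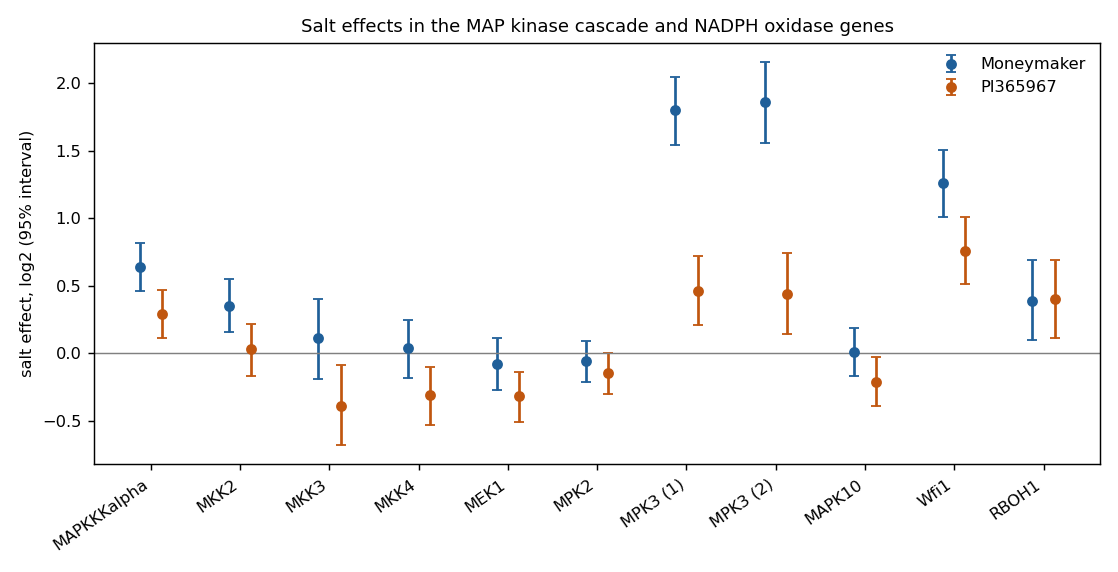
Salt effects in log2 (salt minus control) of the members and of the MAPK cascade and NADPH oxidase probe sets in Moneymaker and PI365967, with 95% confidence intervals from limma. MPK3 (1) is the specific sense probe set and MPK3 (2) the sense probe set that can take related signal. MPK3 and Wfi1 lie above the 6 cascade probe sets outside the members, whose effects run from −0.39 to 0.35, and the MPK3 intervals of the genotypes do not overlap.

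MPK3, the kinase at the end of the relay, was read by 3 probe sets: a sense probe set specific by its suffix, a sense probe set whose suffix marks possible signal from related transcripts, and a dim one designed in the opposite orientation. On the specific probe set the Moneymaker control arrays had normalized log2 levels of 8.71, 8.94 and 8.62, from intensities of 415.2 to 594.7. The Moneymaker salt arrays read 10.76, 10.59 and 10.32, from intensities of 1216 to 1888. The lowest salt array was 1.37 above the highest control array. The rise was 1.80 ± 0.12 in log2 (3.48-fold, 95% confidence interval 1.54 to 2.05, adjusted p = 2.01e-07), and 294 of the 10038 probe sets, or 2.93%, rose by as much or more.

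In PI365967 the same probe set read 8.74, 8.73 and 8.91 without salt, within the range of the Moneymaker controls. Under salt it read 9.23, 9.29 and 9.25, an SD of 0.03. All 3 salt arrays lay above the 3 controls by at least 0.32, and all lay below the lowest Moneymaker salt array by at least 1.03. The rise was 0.46 ± 0.12 (1.38-fold, 95% confidence interval 0.21 to 0.72, adjusted p = 0.00682), and 15.4% of all probe sets rose by as much or more in PI365967. On the log2 scale this was 25.7% of the rise in Moneymaker. Without normalization the rise in PI365967 was 0.54 but did not pass (adjusted p = 0.14).

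The salt effect on MPK3 was smaller in PI365967 than in Moneymaker by 1.34 ± 0.16 in log2 on the specific probe set (95% confidence interval −1.70 to −0.97, adjusted p = 0.000527). Only 141 probe sets, 1.40% of all, had a difference as low or lower. All 3 MPK3 probe sets were called lower in this comparison, where 7.15% of all probe sets were, and the other members were not. Of all probe sets, 2.93% rose in both genotypes and had a called difference in this direction, as the pair of sense MPK3 probe sets did. Without salt the genotypes differed by 0.04 (95% confidence interval −0.22 to 0.29, adjusted p = 0.84) with overlapping arrays. Under salt PI365967 lay 1.30 ± 0.12 below Moneymaker (2.46-fold, adjusted p = 5.4e-06). The difference of the salt effects was −1.04 without normalization and did not pass there (adjusted p = 0.105), where the median of all probe sets stood at 0.31, so that MPK3 lay at −1.35 relative to it. In rising order the group levels were both control groups, which did not differ beyond their spread, then PI365967 under salt, then Moneymaker under salt.

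The sense probe set of MPK3 open to related transcripts read 8.95, 9.20 and 8.70 in the Moneymaker controls and 11.01, 10.83 and 10.59 under salt. In PI365967 it read 8.80, 8.80 and 9.04 without salt and 9.30, 9.31 and 9.36 with salt. The salt groups lay clear of their controls in both genotypes, by 1.39 and 0.26 between nearest arrays. The rises were 1.86 ± 0.14 (3.63-fold, adjusted p = 4.98e-07) and 0.44 ± 0.14 (1.36-fold, adjusted p = 0.0194), and their difference was −1.42 ± 0.19 (adjusted p = 0.000934). Under salt PI365967 lay 1.49 ± 0.14 below Moneymaker (2.81-fold, adjusted p = 6.22e-06). The rise in PI365967 missed the threshold without the first PI365967 control (0.40, adjusted p = 0.0632), the second control (0.40, adjusted p = 0.0612) or the third salt array (0.42, adjusted p = 0.0527). Over the 12 arrays this probe set and the specific one had a Pearson's r of 0.996 and a Spearman's rho of 0.965. Both read the same RNA, so they are repeat readings of 1 gene and no replicates.

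The last MPK3 probe set was designed, by the letter in its identifier, in the opposite orientation and was dim, with intensities of 9.0 to 50.7. Its normalized log2 level was 5.19, 4.76 and 5.15 in the Moneymaker controls and 5.85, 5.95 and 6.08 under salt. In PI365967 it was 5.05, 5.24 and 5.41 without salt and 5.42, 5.13 and 5.10 with salt, and the groups overlapped. The rise in Moneymaker was 0.92 ± 0.14 (adjusted p = 0.000142). The difference in PI365967 was −0.01 ± 0.14 (adjusted p = 0.945), and the difference of the salt effects was −0.94 ± 0.19 (adjusted p = 0.0101), or −0.79 with adjusted p = 0.304 without normalization. With so low a signal the size depends on the constant added before the logarithm: across the alternatives the rise in Moneymaker ran from 0.45 to 1.43. Whether this probe set reads MPK3 mRNA or a transcript of the other strand was not tested.

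**Figure D3:**
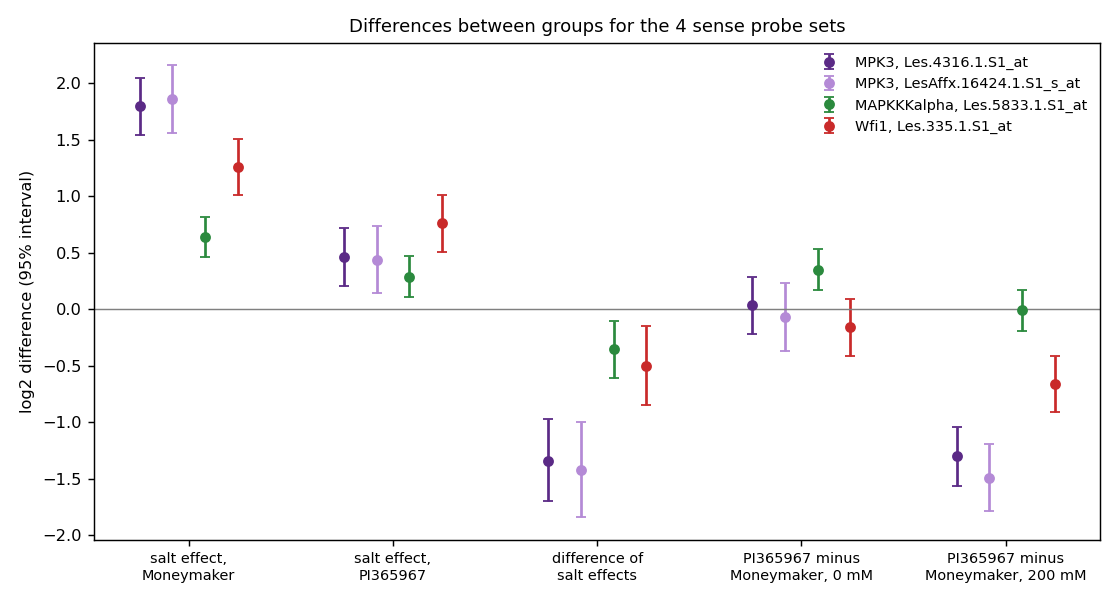
The 5 contrasts for each of the 4 sense member probe sets in log2, with 95% confidence intervals from limma. The MPK3 and Wfi1 intervals for the difference of salt effects and for the genotype difference under salt lie below 0. So does the MAPKKKalpha interval for the difference of salt effects. The intervals are not adjusted for the number of probe sets, and the differences of salt effects of Wfi1 and MAPKKKalpha were not called. MAPKKKalpha is the member whose interval for the genotype difference without salt lies above 0.

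Wfi1, the NADPH oxidase gene, was read by 1 probe set. The Moneymaker controls had normalized log2 levels of 10.61, 10.74 and 10.28, from intensities of 1320 to 2227, and the salt arrays 11.91, 11.71 and 11.79, from 2666 to 4101. Every salt array lay at least 0.97 above every control. The rise was 1.26 ± 0.11 (2.40-fold, 95% confidence interval 1.01 to 1.51, adjusted p = 2.58e-06), and 5.90% of all probe sets rose by as much or more.

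In PI365967, Wfi1 read 10.35, 10.43 and 10.37 without salt and 11.18, 11.01 and 11.24 with salt. The gap between the groups was 0.58. The rise was 0.76 ± 0.11 (1.70-fold, adjusted p = 0.000203), 60.4% of that in Moneymaker on the log2 scale, and 7.90% of all probe sets rose by as much or more. The salt effect in PI365967 minus that in Moneymaker was −0.50 ± 0.16 (95% confidence interval −0.85 to −0.15, adjusted p = 0.0626), just short of the threshold. It passed without the second Moneymaker control array (−0.60, adjusted p = 0.028) and in 4 of the other alternatives, with −0.53 to −0.49.

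Without salt the genotypes overlapped in Wfi1 and the difference was −0.16 ± 0.11 (adjusted p = 0.304). It passed without the third Moneymaker control array, the lowest of its group (−0.29, adjusted p = 0.0379). Under salt every PI365967 array lay below every Moneymaker array, by at least 0.47, and the difference was −0.66 ± 0.11 (1.58-fold, adjusted p = 0.000597). Wfi1 and the 3 MPK3 probe sets were the 4 of 5 members called lower in PI365967 under salt, where 22.7% of all probe sets were. In rising order the group levels were the control groups, which overlapped, then PI365967 under salt, then Moneymaker under salt. Both salt effects of Wfi1 also passed without normalization, at 1.05 (adjusted p = 0.000332) and 0.85 (adjusted p = 0.00771), while the genotype difference under salt did not (−0.64, adjusted p = 0.0647).

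RBOH1, the other respiratory burst oxidase gene with a symbol on the array, is named here although the naming rule did not reach it, and was chosen after its values were seen. Its normalized log2 level was 7.86, 8.27 and 7.68 in the Moneymaker controls and 8.38, 8.39 and 8.21 under salt, and 7.88, 7.99 and 7.75 and then 8.28, 8.19 and 8.36 in PI365967. The Moneymaker groups overlapped, the PI365967 groups did not. The salt effects were 0.39 ± 0.13 (adjusted p = 0.0255) and 0.40 ± 0.13 (adjusted p = 0.0284), and their difference was 0.01 ± 0.19 (95% confidence interval −0.41 to 0.42). Both calls were lost without normalization (0.09 and 0.45), as they were when certain single arrays were left out. In Moneymaker the call was also lost with the Moneymaker arrays alone in the fit (adjusted p = 0.0669), and the arrays were controls 1 (0.35, adjusted p = 0.0797) and 3 (0.27, adjusted p = 0.107) and salt arrays 1 (0.37, adjusted p = 0.0717) and 2 (0.36, adjusted p = 0.0741). In PI365967 these were controls 1 (0.40, adjusted p = 0.0627) and 3 (0.34, adjusted p = 0.0985) and salt arrays 1 (0.40, adjusted p = 0.0653) and 3 (0.36, adjusted p = 0.0818).

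The list of enzymes of superoxide and hydrogen peroxide, which also held alternative oxidase, moved in both directions. Over the whole array 26.0% of probe sets were called higher and 31.3% lower in Moneymaker, and 23.3% and 24.3% in PI365967. Of 19 probe sets outside the members, RBOH1 included, 5 rose and 7 fell in Moneymaker (median −0.16 against −0.05 over all probe sets). In PI365967, 5 rose and 3 fell (median −0.13 against −0.00). The lowest salt effects were −0.59 and −0.42. Of the probe sets that fell, only the brighter of FESOD is named below. AOX1a, the mitochondrial alternative oxidase, by which electrons bypass part of the respiratory chain, rose by 2.22 ± 0.07 in Moneymaker (adjusted p = 4.24e-09) and by 0.96 ± 0.07 in PI365967 (adjusted p = 1.5e-06). SODCC.1, a cytosolic copper-zinc superoxide dismutase, rose by 0.75 ± 0.08 and 0.73 ± 0.08, and GPXle-1, a glutathione peroxidase, by 0.89 ± 0.09 and 0.69 ± 0.09. The 2 probe sets of FESOD, iron superoxide dismutase, disagreed. The dimmer, designed in the opposite orientation by the letter in its identifier, rose by 3.13 ± 0.19 and 3.76 ± 0.19. The brighter, a sense probe set, fell by 0.59 ± 0.09 and 0.25 ± 0.09. Which transcript the dimmer reads was not tested.

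Genes of the Pto and Cf resistance pathways, in which MAPKKKalpha acts, were counted over 15 probe sets. In Moneymaker 3 rose and 5 fell, beside 26.0% and 31.3% of all probe sets. In PI365967 1 rose and 6 fell, beside 23.3% and 24.3% of all. The 3 that rose in Moneymaker encode the Pto-interacting transcription factors of the ethylene response factor family. PTI5 rose by 2.76 ± 0.21, PTI4 by 1.65 ± 0.17 and PTI6 by 1.20 ± 0.09, and each had a called difference between genotypes (−2.05, −1.34 and −1.55). In PI365967, PTI5 rose by 0.71 ± 0.21 (adjusted p = 0.0138, or 0.58 with adjusted p = 0.0575 without the first control), PTI4 read 0.31 ± 0.17 (adjusted p = 0.152) and PTI6 fell by 0.35 ± 0.09 (adjusted p = 0.00942). CITRX, a thioredoxin that binds the Cf-9 resistance protein and restrains its cell death response, fell by 1.26 ± 0.11 and 1.19 ± 0.11. TFT7, a 14-3-3 protein that binds MAPKKKalpha, lies outside the naming rule and was chosen after its values were seen. It fell by 0.31 ± 0.08 in Moneymaker (adjusted p = 0.0044) and read −0.11 ± 0.08 in PI365967 (adjusted p = 0.254). The difference of its salt effects was not called (0.20 ± 0.11, adjusted p = 0.255). Of the other 14-3-3 genes in the list, some were called lower in both genotypes or in PI365967 only, and others were not called for salt.

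Ethylene and jasmonate genes lie among the known outputs of wound and defence MAPKs. Of 36 probe sets for ethylene synthesis and signalling, 22 rose and 7 fell in Moneymaker (median 0.52), and 14 rose and 7 fell in PI365967 (median 0.25). For the difference of salt effects 10 were called lower and 1 higher, where 7.15% of all probe sets were called lower. This list also holds PTI4, PTI5 and PTI6. ERF-H1, among the probe sets that fell, read −2.04 ± 0.18 in Moneymaker and −1.66 ± 0.18 in PI365967 (adjusted p = 1.89e-06 and 1.6e-05). ACS2, an ACC synthase, which makes the ethylene precursor, rose by 3.63 ± 0.18 and 3.28 ± 0.18. ACS6, another ACC synthase, rose by 2.94 ± 0.25 in Moneymaker and by 0.72 ± 0.25 in PI365967 (adjusted p = 0.0308). The latter call was lost without the second (0.69, adjusted p = 0.0775) or the third control (0.69, adjusted p = 0.0773) or the third salt array (0.41, adjusted p = 0.102), and with the PI365967 arrays alone in the fit (adjusted p = 0.0543). Of 15 wound and systemin probe sets, 5 rose and 2 fell in Moneymaker, and 2 rose and 5 fell in PI365967. Of all probe sets, 26.0% were called higher and 31.3% lower in Moneymaker, and 23.3% and 24.3% in PI365967. AOS, allene oxide synthase, rose by 4.92 ± 0.19 and 2.62 ± 0.19, and loxD, the lipoxygenase that feeds it, by 2.59 ± 0.12 and 1.39 ± 0.12. OPR1 fell in both genotypes (−1.74 ± 0.08 and −1.18 ± 0.08), as did opr2 (−0.53 ± 0.08 and −0.36 ± 0.08). ARG2 was called lower in PI365967 on probe sets that read −1.22 ± 0.32 and −1.08 ± 0.29. In Moneymaker these read −0.27 ± 0.32 and −0.53 ± 0.29 and were not called. Their differences of salt effects were not called either (adjusted p = 0.195 and 0.424). Another ARG2 probe set was not called for salt.

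Of the 7 WRKY transcription factor probe sets, 4 rose in each genotype and none fell. The shares of all probe sets called were 26.0% higher and 31.3% lower in Moneymaker, and 23.3% and 24.3% in PI365967. WRKYIId-1 rose by 1.73 ± 0.07 and 0.62 ± 0.07, with a called difference of −1.11. WRKYIId-4, read by a probe set of opposite orientation by its identifier, rose by 0.88 ± 0.17 and 0.87 ± 0.17. Among 6 probe sets for calcium-dependent and SnRK kinases, 3 rose and none fell in Moneymaker, and 2 rose and 1 fell in PI365967. SNF4, a subunit of the SnRK1 kinase, rose by 3.96 ± 0.14 and 4.19 ± 0.14 from control intensities of 10.8 to 18.7 and 22.3 to 49.3, where the size depends on the constant added. GAL83, another subunit, rose by 0.59 ± 0.10 in Moneymaker (adjusted p = 0.000387) and read 0.04 ± 0.10 in PI365967 (adjusted p = 0.786). CDPK1, a calcium-dependent protein kinase, read 0.01 ± 0.07 in Moneymaker and fell by 0.33 ± 0.07 in PI365967 (adjusted p = 0.0027). Without normalization the salt calls of SODCC.1 (0.50), TFT7 (−0.51) and GAL83 (0.41) in Moneymaker were lost, as were those of PTI6 (−0.24), CDPK1 (−0.29) and WRKYIId-1 (0.67) in PI365967. The TFT7 call was also lost on the authors' other log2 values (−0.10, adjusted p = 0.195).

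Among 702 probe sets annotated with a gene name and not only a locus number, those most like each member over the 12 arrays were found by Pearson's r of the normalized log2 values. The arrays share the 4 groups and 1 normalization, so r is given as a description. After the other sense MPK3 probe set, the specific MPK3 probe set was nearest to PTI5 (r = 0.992), WRKYIId-1 (0.989), PLDb2, a phospholipase D (0.970), and ACS6 (0.964). In MPK3, PTI5, WRKYIId-1 and PLDb2 the 3 Moneymaker salt arrays were the highest and the 3 PI365967 salt arrays the next, with no overlap with the controls. In Moneymaker the rise was 2.76 for PTI5 and 1.30 for PLDb2, beside 1.80 for MPK3. By the distance of the salt effects and the unstressed genotype difference, WRKYIId-1 (0.27) was the nearest gene.

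**Figure D4:**
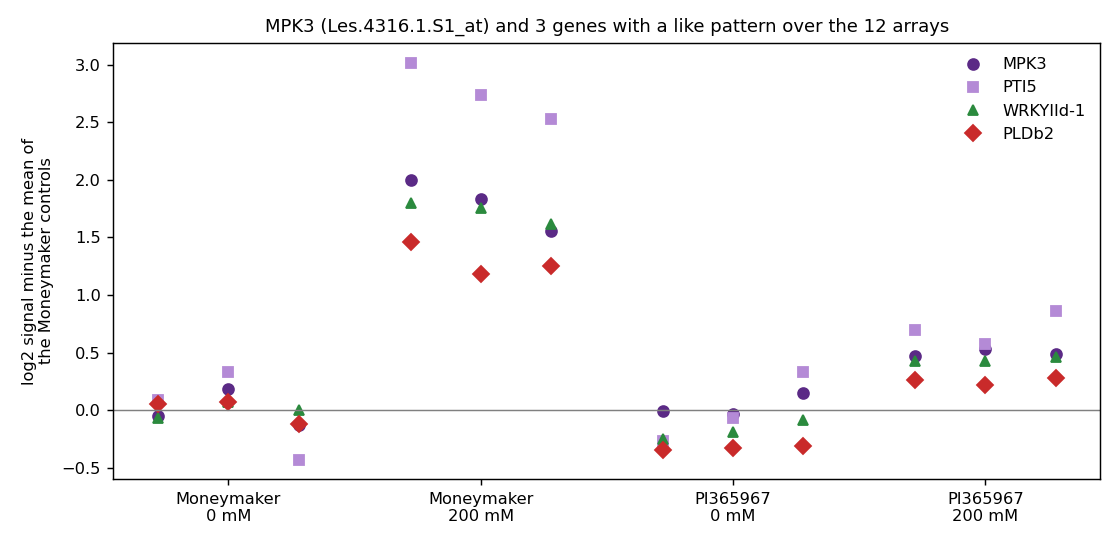
Normalized log2 signal of MPK3, PTI5, WRKYIId-1 and PLDb2 in each of the 12 arrays, relative to the mean of the 3 Moneymaker controls. In each gene the Moneymaker salt arrays are the highest, at 1.56 to 2.00 for MPK3 and 2.53 to 3.02 for PTI5, and the PI365967 salt arrays lie at 0.47 to 0.53 and 0.57 to 0.86.

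MAPKKKalpha had other neighbours. Its highest r was with GRAS6, a GRAS family transcription factor (0.971), ACS3, an ACC synthase (0.958), and DES, a divinyl ether synthase (0.953). Their genotype differences without salt were 0.73, 1.00 and 1.01, beside 0.35 for MAPKKKalpha. By distance of effects the nearest were TSW12, a lipid transfer protein gene (0.06), with salt effects of 0.61 and 0.27, and SK (0.06), with 0.69 and 0.30. Wfi1 had its highest r with CYP85A1, a cytochrome P450 of brassinosteroid synthesis (0.983), ACS2 (0.975), TBN1, a nuclease (0.971), and loxD (0.966). The CYP85A1 probe set is, by its identifier, of opposite orientation and open to related transcripts. By distance Wfi1 was nearest to PLDb2 (0.25), Rab1A, a small GTPase (0.26), and LEA14 (0.27). Between the members, r was 0.945 for MPK3 with Wfi1, 0.737 for MAPKKKalpha with Wfi1 and 0.684 for MPK3 with MAPKKKalpha.

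The authors' deposited table of SAM results (significance analysis of microarrays), made from log2 values that the authors derived separately for these arrays, holds 4 of the 5 member probe sets. In Moneymaker the authors' deposited table gives salt over control ratios of 3.59 and 3.65 for MPK3, 2.74 for Wfi1 and 1.48 for MAPKKKalpha, all at a q-value of 0%. In PI365967 the authors' deposited table gives 1.30 and 1.38 for MPK3, 1.80 for Wfi1 and 1.28 for MAPKKKalpha, at q-values of 0% to 0.016%. The dim MPK3 probe set is neither in that table nor among the 8085 probe sets of those log2 values.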

How the data were processed

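RNA of pooled whole plants was hybridized to an Affymetrix tomato array, 12 arrays in 4 groups of 3. The tests used the linear intensity values that the authors deposited. How background was corrected and probes were summarised is not given in the sources used here. The authors also deposited log2 values of these arrays for 8085 probe sets, whose derivation is likewise not given, and a SAM table with, per the file headers, a score, a fold ratio and a q-value in percent from 100 permutations.

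Because array medians differed by 0.89 in log2, above a limit of 0.2, log2(intensity + 16) was quantile normalized. The 171 control probe sets were normalized with the others and stayed out of the tests. Group means were fitted with limma 3.58.1 in R 4.3.3 (lmFit and eBayes, 8 residual and 3.12 prior degrees of freedom), with 5 contrasts, two-sided tests and Benjamini-Hochberg adjustment over 10038 probe sets. Precision is limited by the number of arrays: standard errors had a median of 0.113 for single effects and 0.160 for the difference between salt effects. The fit was tested on simulated data.

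The members, gene lists and naming rule were chosen with earlier results of these data known. Lists were matched on annotated symbols, and cathDInh, Psy1 and PTOX, matched by accident of spelling, were left out. From each list up to 8 probe sets called in any contrast could be named, by the largest salt effect. RBOH1 and TFT7 were added outside it. Symbols come from the platform's annotation, which can be old; 885 of its 909 gene identifiers matched the RefSeq gene table. Replicate numbers did not pair the samples across the 4 groups: of 18 same-numbered pairs 4 had deviations correlated over 0.1 (r from −0.13 to 0.16). All 3 pairs between the control groups of the genotypes were over 0.1 (r of 0.11, 0.13 and 0.16), so for that comparison a fit with the replicate block on the controls alone was added after the data were seen. Alternatives were other normalizations, offsets, filters and priors, the replicate block, fewer groups in the fit, the authors' log2 values and each array left out.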

Additional observations from a re-analysis of the deposited data

Results flagged for a closer look

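These results had a called difference of the salt effect between the genotypes, PI365967 minus Moneymaker in log2, by limma's interaction contrast. Among 10038 probe sets 13.4% had one. For MPK3 it was −1.34 on the specific sense probe set, −1.42 on the sense probe set that can take related signal and −0.94 on the dim probe set of opposite orientation. The salt effect was also lower in PI365967 for AOX1a (−1.26), PTI5 (−2.05), PTI4 (−1.34), PTI6 (−1.55), AOS (−2.29), loxD (−1.19), ACS6 (−2.22), EREB, an ethylene-responsive element binding factor (−1.96), and WRKYIId-1 (−1.11). It was lower for 2 kinase genes near the threshold: GAL83 (−0.55, adjusted p = 0.027), whose call was lost in 8 of 12 fits that left out an array, and CDPK1 (−0.34, adjusted p = 0.048), whose call was lost in 11 of 12. Without normalization between arrays the calls of AOX1a (−0.97), PTI4 (−1.03), loxD (−0.87), WRKYIId-1 (−0.81), GAL83 (−0.25), CDPK1 (−0.13) and all 3 MPK3 probe sets (−1.04, −1.12 and −0.79) were lost, while PTI5, PTI6, AOS, ACS6 and EREB were called. EREB was dim in PI365967, with intensities of 20.2 to 45.4 without salt and 55.5 to 118 with salt, where the size depends on the constant added. The difference was higher for OPR1, a 12-oxophytodienoate reductase (0.56), which fell by 1.74 in Moneymaker and by 1.18 in PI365967. The OPR1 call was lost without normalization as well (0.79).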

How the results depend on the processing

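No called result for MPK3, MAPKKKalpha or Wfi1 changed sign under any alternative. Some estimates that were not called crossed 0, such as the genotype difference of MPK3 without salt on the specific probe set (−0.26 to 0.13) and that of MAPKKKalpha under salt (−0.05 to 0.03). Without normalization between arrays the median of all probe sets was −0.25 for salt in Moneymaker, 0.31 for the difference of salt effects and −0.22 for the genotypes without salt. There the calls were lost for MAPKKKalpha in Moneymaker (0.42), MAPKKKalpha (0.39) and MPK3 (0.54 and 0.53) in PI365967, the MPK3 difference (−1.04 and −1.12), MAPKKKalpha without salt (0.04) and Wfi1 under salt (−0.64). Members called there fell to 1 for salt in PI365967, 0 for the difference and 0 without salt. Probe sets called were 3532 against 5758 (Moneymaker), 1983 against 4781 (PI365967), 292 against 1344 (difference), 1584 against 3717 (without salt) and 2019 against 4968 (under salt). Among called probe sets, the share that was higher moved from 45.4% to 28.3% in Moneymaker and from 51.8% to 18.7% without salt. For the difference this share moved from 46.6% to 60.3%, or to 34.9% with median centring. The Wfi1 difference passed with median centring (−0.53), offset 64 (−0.49), an intensity trend (−0.50) and the dimmest 25% left out (−0.50), the last also bringing in MAPKKKalpha (−0.35). Leaving out 1 array gave 0.40 to 0.52 for the MPK3 probe set that can take related signal and 0.24 to 0.32 for MAPKKKalpha in PI365967, −0.43 to −0.30 for the MAPKKKalpha difference, and −0.60 to −0.37 and −0.29 to −0.06 for the Wfi1 difference and Wfi1 without salt. Members called then ran from 3 to 5 for the difference, 1 to 2 without salt and 3 to 4 for salt in PI365967. With the replicate number as a block no member call changed (MPK3 difference −1.34, adjusted p = 0.00179), nor with the block and only the controls in the fit (MAPKKKalpha without salt 0.35, adjusted p = 0.0319), and 7 of 18 same-numbered pairs correlated best with their own number. Of 93 calls of other named probe sets and the dim MPK3 probe set, 36 were lost without normalization and 3 under the block. Those of opr2, ARG2 and ERF-H1 are not among the 93. An exact permutation test per member cannot go below 0.1 and gave no call.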
